A study of Mus musculus with 6 samples.

Results

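The genes described here serve the entry of proteins into the endoplasmic reticulum (ER), their folding there and the removal of those that do not fold. They are 48 genes named by symbol, and each matched exactly 1 of the 35275 rows of the deposited table of gene expression. The list was chosen with earlier results of these data known. All 48 averaged 1 FPKM or more (fragments per kilobase of gene length, scaled to the reads of the library) over the 6 libraries. That is the level above which a gene was tested, and 11252 genes in all reached it. The libraries are of B cells isolated from mouse spleens, 3 labelled wild type (WT) and 3 labelled CD40LΔ5, an altered form of CD40 ligand whose nature the labels do not spell out. All mice were C57BL/6, were 6 to 8 weeks old, had received sheep red blood cells (SRBC), an antigen that drives T cell-dependent responses, and gave their spleens on day 8. Whether the 3 libraries of a label are 3 animals is not stated, so p-values measure the spread between these libraries. The comparison asks how B cells differ between the genotypes during that response.

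The ER takes in secreted and membrane proteins through the Sec61 channel, to which ribosomes are directed by the signal recognition particle. Signal peptidase then trims the entering chain, oligosaccharyltransferase adds sugars to it, and chaperones and disulfide isomerases fold it. Chains that fail to fold are sent back to the cytosol for ER-associated degradation. The unfolded protein response matches this machinery to its load through the sensors IRE1, ATF6 and PERK. In B cells that become antibody-secreting plasma cells, IRE1 and its target XBP1 enlarge the ER, and many of the genes below are known to be part of that programme.

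The libraries were not placed in groups alike by every deposited source. The authors' deposited table of group means has a MUT and a WT column. To within 3.33e-08 FPKM, its MUT column is the mean of the libraries labelled WT replicates 1 and 2 and CD40LΔ5 replicate 2, and its WT column that of WT replicate 3 and CD40LΔ5 replicates 1 and 3. Both groupings are given below, and a library is always called by its label. Where 3 values are given for a label, they are those of its replicates 1, 2 and 3. Reads on genes ran from 24320080 to 27866611 per library. Of the B cell markers, Cd79a, a signalling chain of the B cell receptor, was present in every library at 1510.4 to 1999 FPKM. Immunoglobulin genes took 2.59%, 6.09% and 7.95% of reads in WT replicates 1, 2 and 3, and 3.53%, 1.99% and 7.78% in CD40LΔ5 replicates 1, 2 and 3.

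The start sites of these genes are shown first, since the response that links them acts through known promoter elements. The ER stress element (ERSE) reads CCAAT, any 9 bases and CCACG, and its variant ERSE-II reads ATTGG, any 1 base and CCACG. Both were searched on both strands in the RefSeq promoters of the build GRCm38.p6, which run from 250 bases before to 50 bases after a start site. A promoter was held for 39 of the 48 genes. ERSE was found in 8 of them, Calr, Canx, Creld2, Derl3, Dnajc3, Hsp90b1, Hspa5 and Pdia6, and ERSE-II in Dnajb11 and Herpud1. Together that is 10 of 39 genes, or 10 of their 44 promoters, while 0.155% of all 32851 promoters of that length hold either. The elements are known ones of the response that links these genes, so the contrast is a description and not a test. The core of the XBP1 element, TGACG directly followed by TGG, was found in none of the 39 (0.676% of all promoters), and the ATF4 element, TGATG, any 1 base and AAT, in none either (0.965%). These are matches of letters, which the data do not test as sites. The 5 promoters with a match that are printed below include that of Hspa5, the best known target. Hsp90b1, Creld2 and Derl3 have wide ranges in the results, and Herpud1 holds ERSE-II. Derl2 is shown as the close relative of Derl3 without a match. The choice does not show that a match goes with a wide range. Fkbp11 (4.54-fold) and Sdf2l1 (3.38-fold) hold neither element, and Canx (1.26-fold) holds ERSE. The part of the elements in the ranges was not tested. Capitals mark the fixed letters on both sides of the free bases of each element, which reads as CGTGG and ATTGG in a gene that holds ERSE on its opposite strand.
Hspa5 (chr2:34771840-34772139, plus strand): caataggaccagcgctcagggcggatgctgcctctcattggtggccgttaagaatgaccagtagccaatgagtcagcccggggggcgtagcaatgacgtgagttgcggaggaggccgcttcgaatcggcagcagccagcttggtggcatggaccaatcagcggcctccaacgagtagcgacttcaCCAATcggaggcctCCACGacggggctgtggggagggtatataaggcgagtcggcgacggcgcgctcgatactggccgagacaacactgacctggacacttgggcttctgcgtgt
Hsp90b1 (chr10:86705395-86705694, minus strand): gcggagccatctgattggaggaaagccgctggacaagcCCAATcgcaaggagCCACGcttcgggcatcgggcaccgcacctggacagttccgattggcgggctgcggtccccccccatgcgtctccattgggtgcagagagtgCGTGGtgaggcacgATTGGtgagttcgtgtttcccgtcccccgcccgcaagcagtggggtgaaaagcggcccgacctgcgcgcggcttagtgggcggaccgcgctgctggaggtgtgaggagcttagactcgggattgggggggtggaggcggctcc
Creld2 (chr15:88819396-88819695, plus strand): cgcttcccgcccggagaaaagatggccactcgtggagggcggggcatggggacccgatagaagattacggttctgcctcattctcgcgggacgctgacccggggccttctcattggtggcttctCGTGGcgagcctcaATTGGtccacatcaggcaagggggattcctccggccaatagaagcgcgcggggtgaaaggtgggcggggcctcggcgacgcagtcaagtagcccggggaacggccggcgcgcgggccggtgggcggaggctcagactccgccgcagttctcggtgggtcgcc
Derl3 (chr10:75893148-75893447, plus strand): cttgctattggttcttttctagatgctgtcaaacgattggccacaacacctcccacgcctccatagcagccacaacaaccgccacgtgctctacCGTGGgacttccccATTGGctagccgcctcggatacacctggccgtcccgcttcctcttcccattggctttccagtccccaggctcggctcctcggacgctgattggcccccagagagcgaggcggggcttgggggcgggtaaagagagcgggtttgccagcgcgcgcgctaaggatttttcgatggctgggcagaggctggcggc
Herpud1 (chr8:94386179-94386478, plus strand): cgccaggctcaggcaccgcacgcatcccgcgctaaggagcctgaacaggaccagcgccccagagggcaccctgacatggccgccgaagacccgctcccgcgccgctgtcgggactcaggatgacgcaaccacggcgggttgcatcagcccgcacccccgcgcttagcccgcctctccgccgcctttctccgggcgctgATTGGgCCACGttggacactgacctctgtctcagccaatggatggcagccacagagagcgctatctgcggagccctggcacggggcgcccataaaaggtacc
Derl2 (chr11:71019792-71020091, minus strand): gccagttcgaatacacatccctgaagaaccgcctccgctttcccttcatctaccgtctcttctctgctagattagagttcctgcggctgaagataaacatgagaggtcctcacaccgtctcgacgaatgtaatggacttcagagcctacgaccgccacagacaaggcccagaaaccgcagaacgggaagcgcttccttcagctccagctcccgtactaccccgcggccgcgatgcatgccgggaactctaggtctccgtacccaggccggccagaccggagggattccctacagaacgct

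The ERSE of Hspa5 spanned positions -65 to -47 from the RefSeq start site, and that of Creld2 positions -126 to -108 on the opposite strand. Hsp90b1 held a pair, at -212 to -194 and, on the opposite strand, at -107 to -89. In Derl3 the element lay at -156 to -138 on the opposite strand. The ERSE-II of Herpud1 lay at -52 to -42.

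Most of the 48 genes had their highest and lowest values in the same few libraries. Neither grouping put all of the highest libraries in the same group. Their highest library was WT replicate 3 for 21 genes, CD40LΔ5 replicate 3 for 16 and WT replicate 2 for 11, and none was highest in any of the other libraries. Their lowest library was CD40LΔ5 replicate 2 for 37 genes and WT replicate 1 for 7, both averaged as MUT. Of the highest libraries, WT replicate 3 and CD40LΔ5 replicate 3 were averaged as WT, and WT replicate 2 as MUT. Over all genes tested, by contrast, CD40LΔ5 replicate 2 was the lowest for 12.9% and the highest for 30.1%. WT replicate 1 was the lowest for 8.42% of all genes. WT replicate 3 was the highest for 9.64%, CD40LΔ5 replicate 3 for 5.44% and WT replicate 2 for 17.1%. Summed over the 48 genes, the level was 3082, 4294 and 4584 FPKM over the WT libraries and 3400, 2700 and 4663 FPKM over the CD40LΔ5 libraries. Each label thus held libraries at both ends of this range. All 48 genes were higher in WT replicate 2 than in CD40LΔ5 replicate 2, as were 38.6% of all genes tested. Of the 48, 45 were higher in WT replicate 3 than in WT replicate 1, whereas 64.5% of all genes were higher in WT replicate 1.

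**Figure D1:**
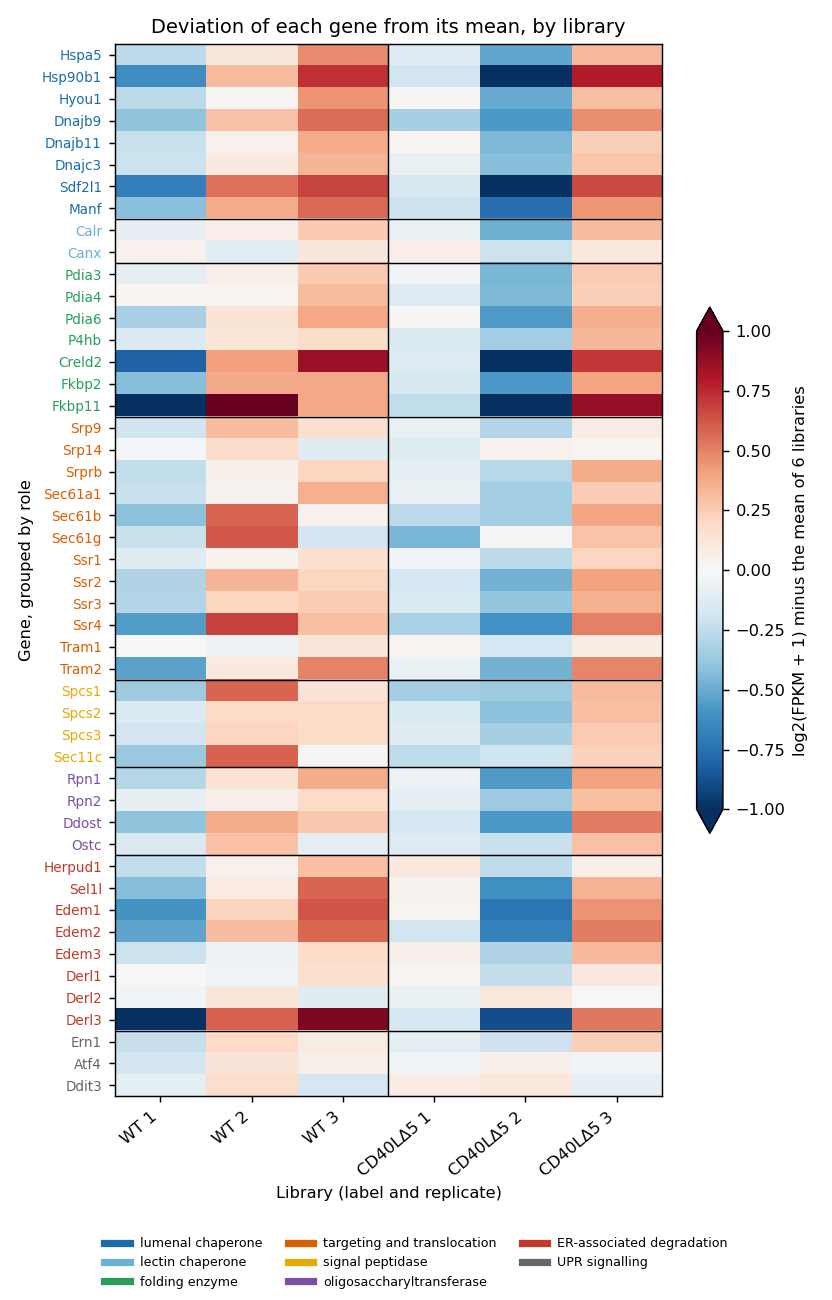
Deviation of each of the 48 genes (rows, coloured and grouped by role) from its own mean over the 6 libraries (columns), on the log2(FPKM + 1) scale; red is above and blue below the mean. WT replicates 2 and 3 and CD40LΔ5 replicate 3 are mostly red, CD40LΔ5 replicate 2 is the lowest library for 37 genes, and the signalling genes Atf4 and Ddit3 vary by at most 1.28-fold.

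Some but not all markers of plasma cells moved with the summed level of these genes. The list had 8 markers (Prdm1, Irf4, Sdc1, Igj, Tnfrsf17, Slamf7, Tnfrsf13b and Eaf2), all 8 found and none at 0 in any library, with a summed level of 1031 to 3902 FPKM in the libraries labelled WT and 860 to 3770 FPKM in those labelled CD40LΔ5. Most of that sum is Igj, the joining chain of secreted antibody. Sdc1, the plasma cell surface proteoglycan CD138, stood at 11.6, 25.8 and 32.7 FPKM over the WT libraries and 16.6, 10.1 and 33.6 FPKM over the CD40LΔ5 libraries. Its lowest libraries were WT replicate 1 and CD40LΔ5 replicate 2, as for the summed ER genes. Prdm1, Igj, Slamf7 and Eaf2 had the same lowest libraries. Igj stood at 816 FPKM in WT replicate 1 and 653 FPKM in CD40LΔ5 replicate 2, against 1404 to 3627 FPKM elsewhere. Tnfrsf17 was lowest in CD40LΔ5 replicate 2, followed by CD40LΔ5 replicate 1. Others did not follow: Tnfrsf13b, the receptor TACI, which other B cells also carry, was highest in WT replicate 1 and lowest in WT replicate 3 (129 and 110.1 FPKM). Irf4, a transcription factor of activated B cells and plasma cells, varied by 1.21-fold and was highest in CD40LΔ5 replicate 1. In bulk samples a change in the number of such cells and a change in RNA per cell cannot be told apart, and the part of plasma cells in the values below was not tested. Germinal centre markers followed another order, with the highest sum in CD40LΔ5 replicate 1 (169 FPKM) and the lowest in WT replicate 1 (43.6 FPKM; 8 of 8 found, none at 0). Of the other cells that such a preparation could hold, macrophage markers (8 of 9 found) were highest in WT replicate 1 at a sum of 276 FPKM, against 71.4 to 126 FPKM in the other libraries. Neutrophil markers (7 of 7 found) were highest in CD40LΔ5 replicate 3 and WT replicate 3, at 528 and 297 FPKM, against 39.2 to 75.8 FPKM elsewhere. T cell markers (7 of 7) summed to 20.8 to 28.9 FPKM, NK cell markers (5 of 5) to 18.5 to 49.3 FPKM and erythroid markers (5 of 6) to 277 to 988 FPKM. No marker of these lists was at 0 in any library, and their part was not tested either.

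Among the lumenal chaperones, Hspa5 encodes BiP, the HSP70 of the ER (ENSMUSG00000026864, chromosome 2, 34771970 to 34776531, plus strand). It measured 244, 316 and 405 FPKM over the WT libraries and 266, 203 and 366 FPKM over the CD40LΔ5 libraries. The groups overlapped under either grouping, and the highest library held 1.997 times the lowest. Hsp90b1 encodes GRP94, the HSP90 of the ER and a client-specific chaperone of integrins and Toll-like receptors (ENSMUSG00000020048, chromosome 10, 86690209 to 86705509, minus strand). Its level was 129, 248 and 331 FPKM in the libraries labelled WT and 174, 97.0 and 347 FPKM in those labelled CD40LΔ5. That is a range of 3.57-fold, wider than that of BiP in the same libraries. Both genes hold ERSE in the promoters printed above.

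The partners of BiP had ranges of their own and, like BiP, were lowest in CD40LΔ5 replicate 2. Sdf2l1, which keeps BiP clients soluble with a J protein, stood at 34.9, 83.6 and 91.4 FPKM under the label WT and at 50.6, 27.0 and 90.0 FPKM under the label CD40LΔ5. Manf, a secreted protein that binds BiP, measured 49.2, 85.7 and 98.1 FPKM under the first label and 56.8, 38.5 and 90.1 FPKM under the second. Both were lowest in CD40LΔ5 replicate 2 and highest in WT replicate 3. Of the J domain co-chaperones, Dnajb9 had a range of 2.28-fold, Dnajb11 of 1.78-fold and Dnajc3 of 1.73-fold. Dnajb9 (ERdj4), which also holds IRE1 in check, measured 16.4, 27.3 and 32.8 FPKM over the WT libraries and 17.3, 14.4 and 30.7 FPKM over the CD40LΔ5 libraries. Dnajb11 (ERdj3), which hands substrates to BiP, measured 46.3, 55.5 and 70.2 FPKM in the former and 54.7, 39.4 and 63.8 FPKM in the latter. Both thus had their extremes in the libraries where those of BiP lay. Hyou1, the exchange factor of BiP, measured 38.2, 46.6 and 63.7 FPKM over the WT libraries and 46.7, 32.4 and 57.2 FPKM over the CD40LΔ5 libraries. For all 8 of these chaperones CD40LΔ5 replicate 2 was the lowest library, and for 7 of the 8 WT replicate 3 was the highest.

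The lectin chaperones, which bind chains by their sugars, differed from each other. The soluble Calr (calreticulin) was the most abundant of the 48 genes, at 331, 368 and 422 FPKM in the libraries labelled WT and 334, 250 and 434 FPKM in those labelled CD40LΔ5. Its membrane-bound relative Canx (calnexin) stood at 84.3, 75.9 and 88.4 FPKM under the label WT and at 85.9, 70.3 and 88.3 FPKM under the label CD40LΔ5. The range was 1.73-fold for Calr and 1.26-fold for Canx, and both hold ERSE. The range of Canx lay below the median range of all genes tested, 1.35-fold.

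Of the folding enzymes, the disulfide isomerases were abundant, and Creld2 and Fkbp11 varied most. Pdia4 measured 202, 202 and 248 FPKM over the WT libraries and 182, 145 and 235 FPKM over the CD40LΔ5 libraries. Pdia3, Pdia6 and P4hb, which exchange disulfide bonds as Pdia4 does, had mean levels of 106 to 149.8 FPKM and ranges of 1.61-fold (P4hb) to 1.94-fold (Pdia6). Pdia3, the partner of the lectin chaperones, had 139, 154 and 177 FPKM under the label WT and 145, 107 and 176 FPKM under the label CD40LΔ5. Pdia6, which also acts on IRE1, had 94.7, 131 and 156 FPKM under the first label and 119.8, 80.2 and 153 FPKM under the second. The isomerases were lowest in CD40LΔ5 replicate 2, and all but P4hb were highest in WT replicate 3. Creld2, a secreted and ER-resident protein with isomerase-like motifs (ENSMUSG00000023272, chromosome 15, 88819646 to 88826681, plus strand), measured 36.4, 86.1 and 118 FPKM under the label WT. Under the label CD40LΔ5 it measured 58.8, 30.9 and 106 FPKM. Its order over the libraries was that of Hspa5.

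The prolyl isomerases Fkbp2 and Fkbp11 formed a contrasting pair. Fkbp11 (ENSMUSG00000003355, chromosome 15, 98724373 to 98728198, minus strand) had the widest range of the 48 genes, 4.54-fold. It stood at 13.3, 60.6 and 37.8 FPKM in the libraries labelled WT and at 24.1, 13.8 and 53.2 FPKM in those labelled CD40LΔ5. Fkbp2 measured 42.3, 74.5 and 75.1 FPKM in the former and 51.1, 37.9 and 75.3 FPKM in the latter, a range of 1.98-fold. WT replicate 2 was the highest library for Fkbp11, and WT replicate 1 the lowest.

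**Figure D2:**
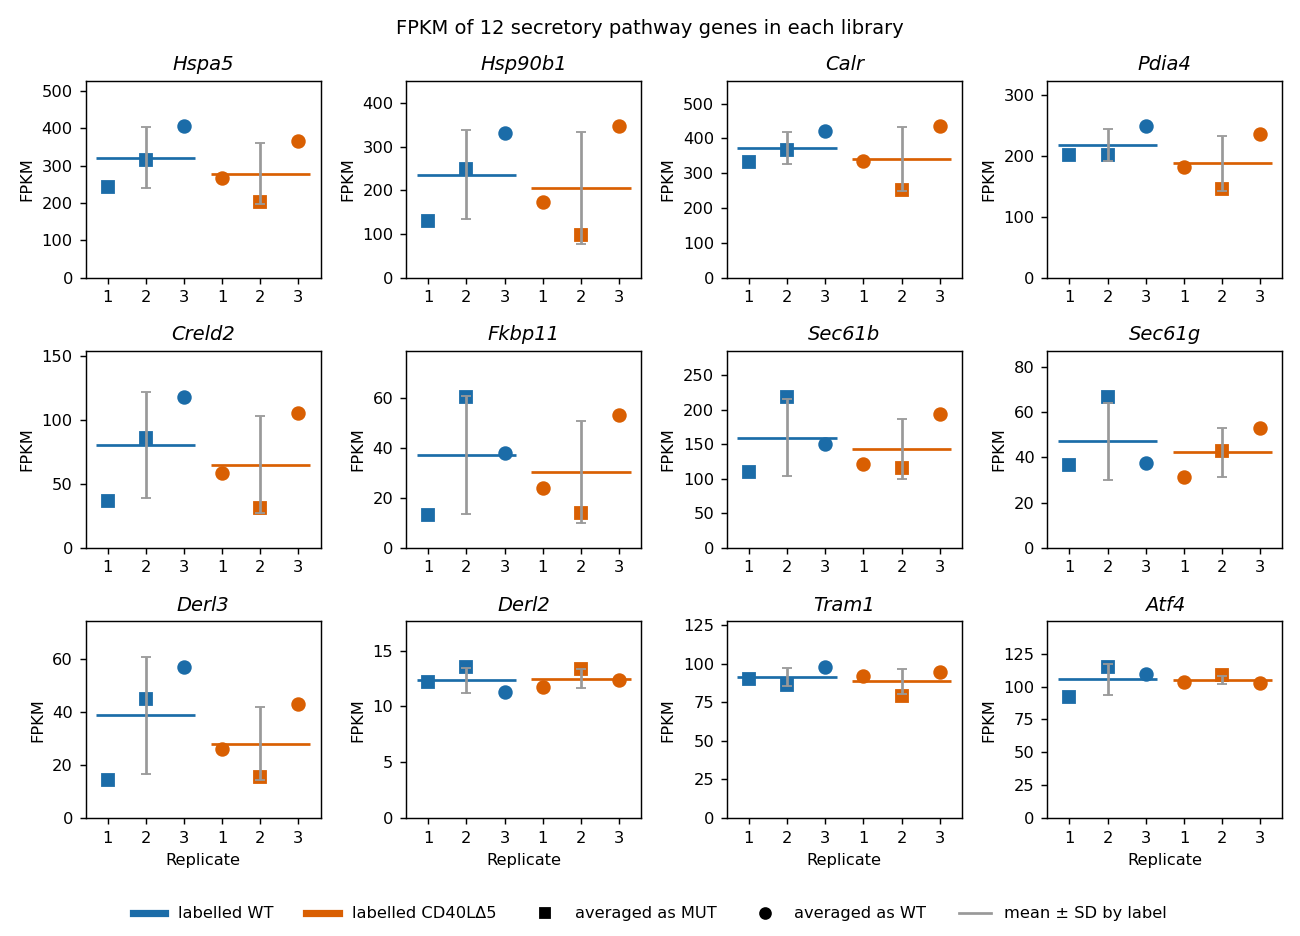
FPKM of 12 genes in each library, by label and replicate (blue WT, orange CD40LΔ5); squares are libraries that the deposited table averaged as MUT and circles those averaged as WT, and lines and bars are the mean and SD of 3 libraries by label. Hspa5, Hsp90b1, Creld2 and Derl3 have WT replicate 1 and CD40LΔ5 replicate 2 as their lowest libraries, whereas Derl2, Tram1 and Atf4 span at most 1.25-fold.

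The genes of targeting and translocation were highest in WT replicate 2 (5 genes), CD40LΔ5 replicate 3 (4 genes) or WT replicate 3 (3 genes). Sec61a1, which encodes the channel itself, measured 64.6, 77.5 and 97.1 FPKM over the WT libraries and 72.0, 59.7 and 90.1 FPKM over the CD40LΔ5 libraries, in the order of Hspa5. Its small partner Sec61b stood at 109.6, 219 and 150.3 FPKM in the libraries labelled WT and at 122, 115 and 193 FPKM in those labelled CD40LΔ5. The third subunit, Sec61g, stood at 36.8, 66.9 and 37.7 FPKM and at 31.2, 42.6 and 52.8 FPKM under the same labels. The small subunits were therefore highest in WT replicate 2, where the channel gene was not. Per unit of length, Sec61b had the highest mean level of the 3 (151 FPKM) and Sec61g the lowest (44.7 FPKM).

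Of the 4 genes of the translocon-associated complex (TRAP), Ssr4 varied most, by 2.5-fold, with 34.9, 84.4 and 64.2 FPKM under the label WT and 41.5, 33.8 and 74.1 FPKM under the label CD40LΔ5. Ssr1 varied by 1.42-fold, Ssr3 by 1.69-fold and Ssr2 by 1.84-fold. The translocating chain-associated proteins differed in level and in range. Tram1 had 90.3, 86.6 and 98.2 FPKM under the label WT and 91.9, 79.4 and 94.6 FPKM under the label CD40LΔ5. Tram2 was lower throughout, at 5.20, 8.59 and 11.7 FPKM over the WT libraries and 7.56, 5.47 and 11.6 FPKM over the CD40LΔ5 libraries. Its range was 2.24-fold against 1.24-fold for Tram1. Of the signal recognition particle, Srp14 varied by 1.24-fold at 100.3 to 124 FPKM, and Srp9, its partner in the particle, by 1.54-fold. Srp9 had 53.0, 76.3 and 68.1 FPKM over the WT libraries and 57.9, 49.6 and 64.5 FPKM over the CD40LΔ5 libraries, with its peak in WT replicate 2. Srprb, a subunit of the receptor for the particle, stood at 7.57 to 12.4 FPKM.

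The subunits of signal peptidase were highest in WT replicate 2 or CD40LΔ5 replicate 3, and those of oligosaccharyltransferase in CD40LΔ5 replicate 3. Sec11c, a catalytic subunit of signal peptidase, measured 50.8, 99.9 and 66.7 FPKM over the WT libraries and 55.2, 57.3 and 77.5 FPKM over the CD40LΔ5 libraries. Spcs1, an accessory subunit, measured 47.4, 91.6 and 67.1 FPKM in the former and 48.2, 47.3 and 76.2 FPKM in the latter. Both were highest in WT replicate 2. Spcs2 and Spcs3, the other accessory subunits, were highest in CD40LΔ5 replicate 3, with ranges of 1.65-fold and 1.51-fold. Spcs2 had 53.8, 68.0 and 67.8 FPKM under the label WT and 53.8, 44.4 and 73.4 FPKM under the label CD40LΔ5, and Spcs3 had 44.0, 58.7 and 57.6 FPKM and 46.2, 39.9 and 60.3 FPKM in the same order. All 4 subunits of oligosaccharyltransferase on the list were lowest in CD40LΔ5 replicate 2. Of these, Ddost had the highest level and the widest range, with 73.2, 126 and 118 FPKM under the label WT and 86.0, 65.0 and 139.6 FPKM under the label CD40LΔ5. Rpn1 stood at 46.6, 62.7 and 74.0 FPKM over the WT libraries and 55.0, 38.1 and 75.8 FPKM over the CD40LΔ5 libraries. Rpn2 and Ostc varied by 1.59-fold and 1.44-fold.

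The peak in WT replicate 2 moved with gene length. The 11 genes highest in that library had a median listed length of 1367 bases, against 2613 bases for the 21 genes highest in WT replicate 3. Over all genes tested, the median log2 difference between WT replicates 2 and 3 was 0.32 for the 1442 genes under 1000 bases. It was 0.14 from 1000 to 2000 bases, 0.02 from 2000 to 4000 bases and -0.05 from 4000 to 8000 bases. Most of the genes highest in WT replicate 2 lay above the median of their length class, but their differences are above 0 by selection. The furthest in value were Sec61g (1862 bases) at a log2 difference of 0.81 and Fkbp11 (731 bases) at 0.67. Sec11c (2768 bases, 0.58), Sec61b, Spcs1, Ssr4, Ddit3, Derl2 and Srp9 also lay above it. Srp14 (0.30) and Atf4 (0.07) did not. Without that selection, 4 of the 5 members under 1000 bases were higher in WT replicate 2 than in WT replicate 3 (median 0.34). From 1000 to 2000 bases it was 6 of 11 (median 0.07), and from 2000 to 4000 bases 5 of 22 (median -0.20). The part of length in the order of these genes was not tested. Small genes often have processed copies elsewhere in the genome. How reads were shared between such loci is not given in the sources used here, and its part was not tested.

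**Figure D3:**
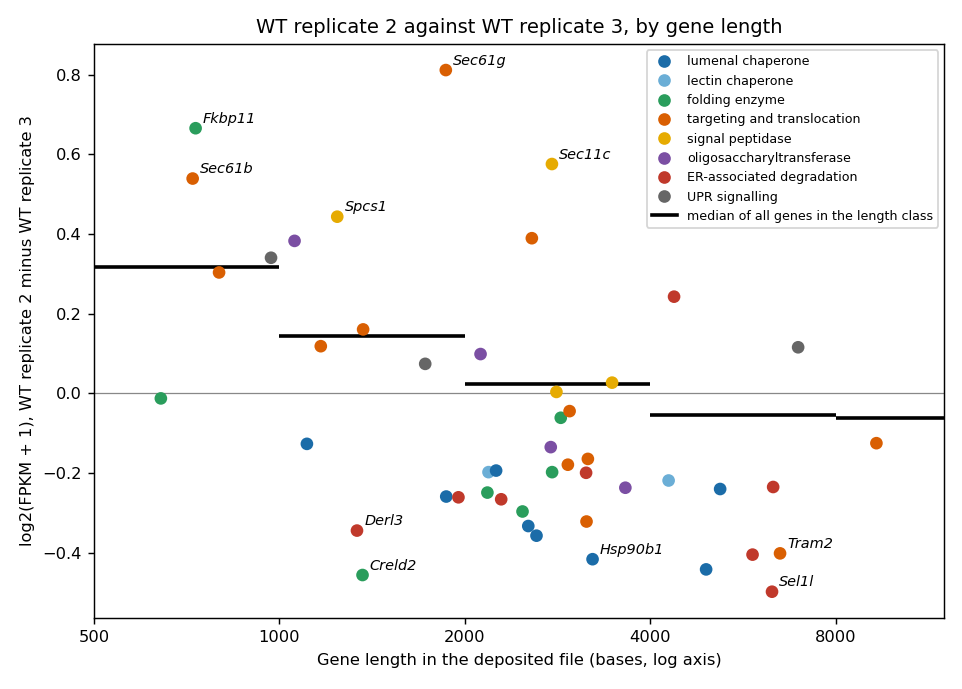
log2(FPKM + 1) of WT replicate 2 minus WT replicate 3 for the 48 genes (points coloured by role) against the gene length listed in the deposited file (log axis), with the median of all genes tested in each length class as black lines. Genes under 1000 bases were higher in WT replicate 2 in general (median 0.32), and Sec61g, Fkbp11, Sec11c and Sec61b lay above the line of their class, whereas Creld2 and Derl3 lay below it.

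In ER-associated degradation, the derlins gave the widest contrast between relatives. The derlins are membrane proteins that help to draw misfolded chains back out of the ER. Derl3 (ENSMUSG00000009092, chromosome 10, 75893398 to 75895941, plus strand) had 14.2, 44.8 and 57.2 FPKM under the label WT and 26.0, 15.5 and 42.9 FPKM under the label CD40LΔ5. Derl2 (ENSMUSG00000018442, chromosome 11, 71007164 to 71019841, minus strand) varied far less, with 12.2, 13.6 and 11.3 FPKM in the former and 11.8, 13.4 and 12.3 FPKM in the latter. Derl3 had a range of 4.01-fold and Derl2 the narrowest of all 48 genes, 1.199-fold. Derl1 lay between them in range (1.33-fold), with 47.0, 45.9 and 52.8 FPKM under the label WT and 47.7, 39.7 and 50.4 FPKM under the label CD40LΔ5. WT replicate 3 was thus the highest library for Derl3 and the lowest for Derl2.

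The EDEM genes, which trim mannose from misfolded glycoproteins, were all lowest in CD40LΔ5 replicate 2 and varied by different amounts. Edem1 measured 39.4, 70.1 and 93.2 FPKM over the WT libraries and 61.4, 35.8 and 82.4 FPKM over the CD40LΔ5 libraries. Edem2 measured 32.8, 59.4 and 71.6 FPKM in the former and 42.0, 29.6 and 68.6 FPKM in the latter. Edem3 was the lowest in level, with 11.6, 13.0 and 15.5 FPKM under the label WT and 14.2, 10.8 and 17.2 FPKM under the label CD40LΔ5. Their ranges were 2.60-fold, 2.42-fold and 1.59-fold, and Edem3 was highest in CD40LΔ5 replicate 3, where Edem1 and Edem2 were highest in WT replicate 3. Sel1l, the scaffold of the HRD1 ubiquitin ligase, measured 16.6, 24.0 and 34.3 FPKM under the first label and 23.2, 14.5 and 28.8 FPKM under the second. Herpud1, a membrane protein that recruits components to that ligase, stood at 64.1, 78.3 and 94.0 FPKM in the libraries labelled WT and at 81.7, 63.8 and 78.9 FPKM in those labelled CD40LΔ5. Herpud1 varied by 1.48-fold, less than Sel1l (2.37-fold).

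Of the 3 members that signal the unfolded protein response, Ern1 varied by 1.49-fold and Atf4 and Ddit3 by less. Ern1, which encodes IRE1α, stood at 3.46, 5.01 and 4.54 FPKM over the WT libraries and 3.92, 3.53 and 5.16 FPKM over the CD40LΔ5 libraries. Atf4, the transcription factor downstream of PERK, measured 92.3, 115 and 109 FPKM in the former and 103, 109 and 103 FPKM in the latter. Ddit3, which encodes CHOP, the factor linked to death under prolonged ER stress, measured 14.8, 18.1 and 14.1 FPKM and 16.9, 17.2 and 14.8 FPKM in the same order. Atf4 and Ddit3 were not highest where the chaperones were, and their ranges of 1.25-fold and 1.28-fold lay below the median of all genes tested. Atf4 and IRE1 are controlled largely after transcription, which FPKM values do not show.

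Over all 48 genes the ratio of the highest to the lowest library had a median of 1.76, against 1.35 over all genes tested and 1.27 over the 5937 genes that averaged 10 FPKM or more. It was above 2 for 14 of the 48 genes (29.2%), against 16.2% of all genes tested and 7.34% of those with at least 10 FPKM, which 45 of the 48 reach. The 5 genes above 3 were Fkbp11, Derl3, Creld2, Hsp90b1 and Sdf2l1. By role, the median ratio was 2.14 for lumenal chaperones, 1.98 for ER-associated degradation, 1.94 for folding enzymes and 1.79 for both signal peptidase and oligosaccharyltransferase. It was 1.67 for targeting and translocation, 1.50 for the lectin chaperones and 1.28 for the signalling genes.

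**Figure D4:**
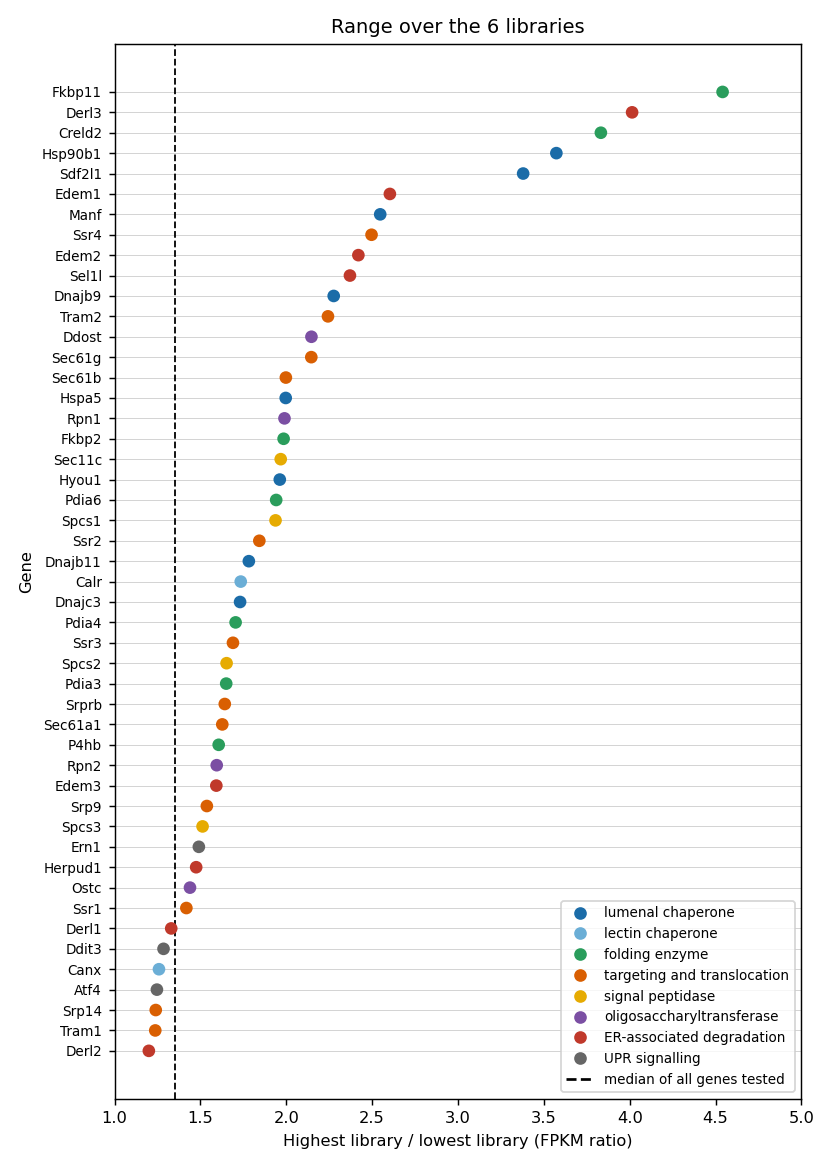
Ratio of the highest to the lowest of the 6 libraries, in FPKM, for each of the 48 genes, ranked and coloured by role; the dashed line is the median over all 11252 genes tested (1.35). Fkbp11, Derl3, Creld2, Hsp90b1 and Sdf2l1 lie above 3, while Derl2, Tram1, Srp14, Atf4, Canx, Ddit3 and Derl1 lie left of the line.

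By the labels, most of these genes were lower under CD40LΔ5 in value, but none passed the test. Of the 48 genes 45 had a log2 difference under 0, as did 44.5% of all genes tested, and the median was -0.14 against 0.01 over all genes. Pdia4 had the smallest p of the 48, at 217 ± 26.7 FPKM over the WT libraries and 188 ± 45.3 FPKM over the CD40LΔ5 libraries (mean ± SD, n = 3 each). Its log2 difference was -0.23 ± 0.19 (SE). Next came Srp9, at 65.8 ± 11.8 and 57.4 ± 7.48 FPKM, and Manf, at 77.7 ± 25.4 and 61.8 ± 26.2 FPKM, in the same order of labels. Dnajb9, Spcs1, Spcs2, Hspa5, Pdia3, Calr and Spcs3 followed, with log2 differences of -0.30 (Dnajb9) to -0.14 (Spcs3). The 3 genes with higher values were Ddit3 (log2 difference 0.06), Edem3 (0.06) and Derl2 (0.02). For no gene of the 48 did the groups stand apart. Over all genes tested, the groups did not overlap for 1.32% on the lower and 2.98% on the higher side.

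With limma on log2(FPKM + 1), 0 of the 48 genes and 0.0% of all 11252 passed an adjusted p of 0.05 (adjusted p = 0.999993 for each of the 48). At an unadjusted p under 0.05 there were 0 of the 48 genes, beside 0.32% of all genes on the lower and 0.915% on the higher side, and limma voom on recovered whole reads also called none. The direction rested on single libraries: without CD40LΔ5 replicate 2, only 15 of the 48 genes had lower values and the median was 0.04. Leaving out CD40LΔ5 replicate 2 and WT replicate 3, the pair that both sources name alike, the other 4 libraries had 9 of 48 genes lower and a median of 0.13.

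By the sets of the deposited means, chaperone, degradation and oligosaccharyltransferase genes had lower values in the libraries averaged as MUT, but no gene of the 48 passed the test. Of the 48 genes 43 had a log2 difference under 0, against 38.0% of all genes, with a median of -0.32 against 0.05 over all genes. All 8 lumenal chaperones (median -0.48), all 7 folding enzymes (median -0.42) and all 4 oligosaccharyltransferase genes (median -0.33) had lower values, as did 7 of 8 genes of degradation (median -0.49). The 5 with higher values were Sec61g, Srp14, Derl2, Ddit3 and Sec11c. The 2 comparisons use the same libraries, so their values are not independent.

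Edem3 had the smallest p in these sets, at 11.8 ± 1.14 FPKM in the MUT set and 15.6 ± 1.51 FPKM in the WT set (mean ± SD, n = 3 each), a log2 difference of -0.38 ± 0.10 (SE; limma adjusted p = 0.343). Hyou1 followed, at 39.1 ± 7.13 against 55.9 ± 8.57 FPKM (log2 difference -0.51 ± 0.16 SE; limma adjusted p = 0.352). Sel1l measured 18.3 ± 5.01 against 28.7 ± 5.56 FPKM, and Tram2 6.42 ± 1.88 against 10.3 ± 2.35 FPKM. The libraries overlapped for Sel1l and Tram2 because WT replicate 2, averaged as MUT, lay above CD40LΔ5 replicate 1, averaged as WT. Of the 10 genes of smallest p, Edem1 had the largest log2 difference (-0.74 ± 0.27 SE), and Herpud1 the smallest (-0.30 ± 0.11 SE), with Dnajb11, Pdia6, Sec61a1 and Rpn1 between them. The largest differences of all 48 genes came with larger errors, namely Creld2 (-0.96 ± 0.42 SE), Hsp90b1 (-0.89 ± 0.39 SE) and Derl3 (-0.86 ± 0.46 SE).

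The groups did not overlap for 6 of the 48 genes on the lower side (12.5%), against 4.79% of all genes, and for none on the higher side, against 12.1%. These 6 were Canx, Derl1, Edem3, Herpud1, Hyou1 and Tram1, of which Canx, Derl1 and Tram1 have small ranges. At an unadjusted p under 0.05 there were 10 of the 48 genes on the lower side (20.8%), against 3.61% of all genes, and none on the higher side, against 9.39%. With limma and adjustment over all genes, 0 of the 48 passed, as did 0.0267% of all genes. The count of 10 became 32 without WT replicate 2, 23 without CD40LΔ5 replicate 1, 4 without CD40LΔ5 replicate 3, 3 without WT replicate 1, 2 without CD40LΔ5 replicate 2 and 1 without WT replicate 3. The count over all genes moved too. In the same order it was 655 of 11222, 372 of 11269, 430 of 11287, 346 of 11247, 193 of 11158 and 150 of 11314.

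**Figure D5:**
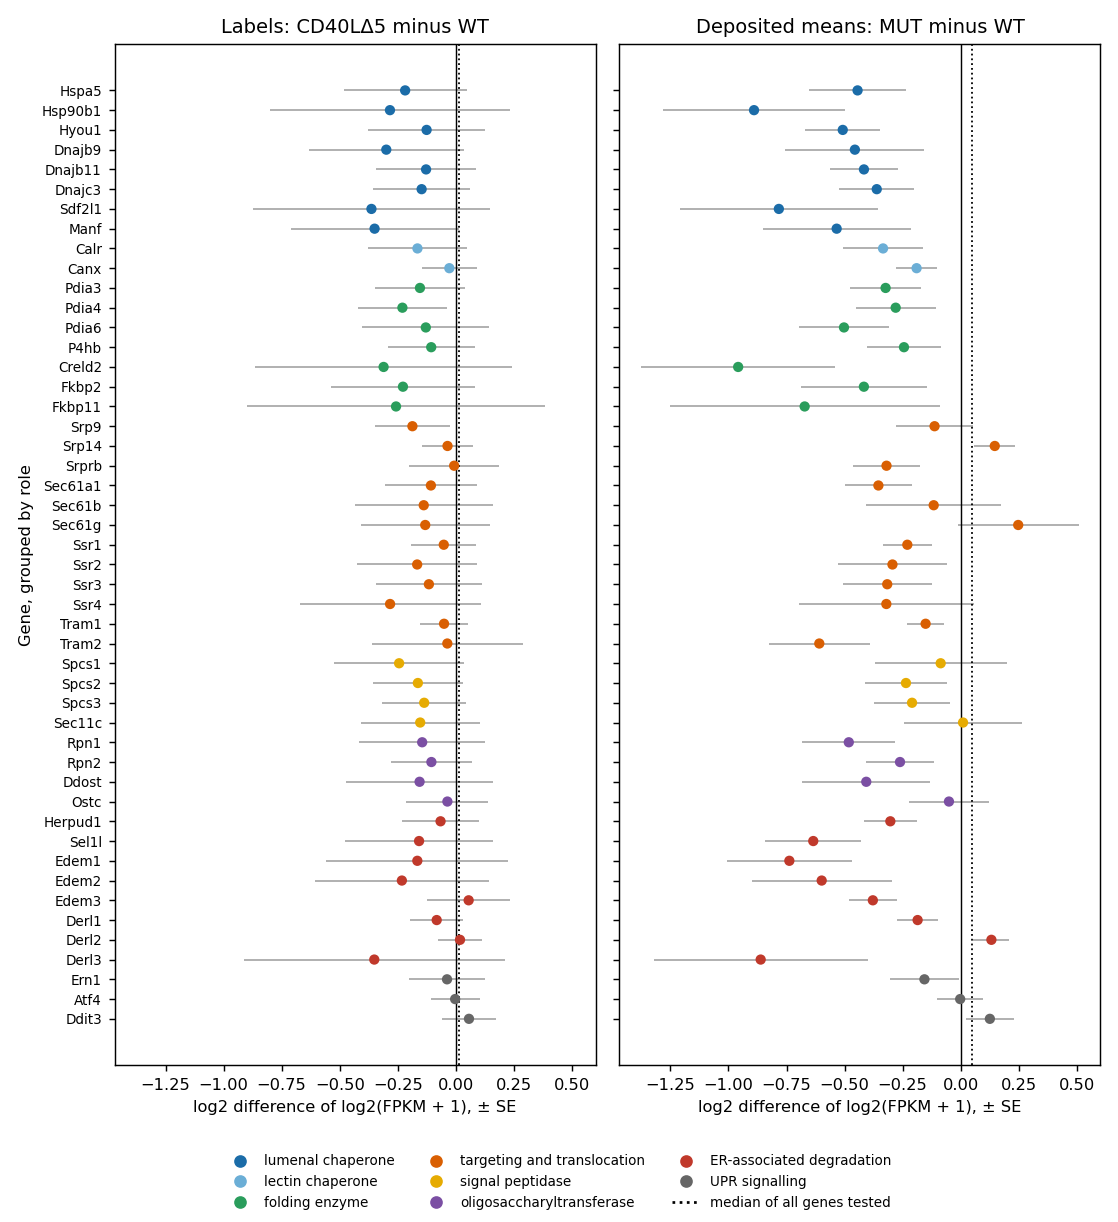
Difference in log2(FPKM + 1) of each of the 48 genes, with its SE from limma, between the libraries labelled CD40LΔ5 and WT (left) and between the sets that the deposited table averaged as MUT and WT (right); dotted lines are the medians of all genes tested. Points lie left of 0 for 45 genes on the left and 43 on the right, and none passed an adjusted p of 0.05 in either.

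Other genes of the same pathways, 104 in 6 lists, of which 94 were tested, gave the same result for single genes. None passed in either direction in either comparison, and the smallest limma adjusted p was 0.343 (Ube2j1, by the sets of the deposited means). By the labels 74 of the 94 had lower values (median log2 difference -0.05), against 44.5% of all genes tested. By the sets 68 of 94 had lower values (median -0.09), against 38.0%. Xbp1, the transcription factor that IRE1 activates by splicing its RNA, stood at 69.1, 181 and 242 FPKM over the WT libraries and 123, 52.8 and 214 FPKM over the CD40LΔ5 libraries. Its order over the libraries was that of the summed lumenal chaperones, with a range of 4.58-fold. By the sets of the deposited means its log2 difference was -1.08 ± 0.47 SE (limma adjusted p = 0.389), and by the labels -0.37 ± 0.62 SE. A value per gene does not show how much of the Xbp1 RNA was spliced.

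Of the other sensors and factors, Creb3l2, a membrane-bound relative of ATF6, stood at 3.13 to 10.5 FPKM. Of the sensors, Atf6 stood at 15.2 to 20.3 FPKM and Eif2ak3, which encodes PERK, at 26.0 to 34.7 FPKM. All 3, the genes of smallest p in their list, had lower values in the MUT set at an unadjusted limma p under 0.05. Their log2 differences were -0.80, -0.24 and -0.21 (-0.18, 0.08 and 0.09 by the labels). Of that list, 9 of 12 tested genes had lower values in the MUT set. Over all genes tested, 3.61% were lower at that p and 38.0% were lower in value. The same shares stand beside the counts of the other lists. In ER-associated degradation 9 of 13 had lower values, among them Ube2j1, a ubiquitin-conjugating enzyme of the ER membrane (log2 difference -0.50 ± 0.13 SE), Vcp, the ATPase that extracts chains from it (-0.31), and Nploc4, a cofactor of Vcp (-0.17). Of ER to Golgi transport 19 of 21 had lower values, such as Sec24a (-0.33), a cargo adaptor of the COPII coat, and the COPI subunits Copa (-0.21) and Copb2 (-0.20). By the labels the differences were -0.03 for Ube2j1, -0.06 for Vcp, 0.01 for Nploc4, 0.04 for Sec24a, -0.01 for Copa and -0.03 for Copb2.

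By the sets of the deposited means, 10 of 15 genes of N-glycosylation had lower values. The genes of smallest p were Stt3a (-0.25) and Stt3b (-0.18), the catalytic subunits of oligosaccharyltransferase, and Magt1 (-0.21). Of targeting and processing 8 of 12 had lower values, such as Srpr (-0.24) and Srp68 (-0.17), while Sec61a2, a second channel gene, was higher (0.33). In folding and oxidation 13 of 21 had lower values, such as Txndc11 (-0.54), a thioredoxin-like protein. Sdf2, the close relative of Sdf2l1, was higher in the libraries averaged as MUT (0.35; unadjusted p = 0.0112, limma adjusted p = 0.346), whereas Sdf2l1 had a log2 difference of -0.78. Sdf2 measured 32.9, 37.7 and 27.0 FPKM over the WT libraries and 27.6, 40.6 and 31.6 FPKM over the CD40LΔ5 libraries, and was thus highest in CD40LΔ5 replicate 2, where Sdf2l1 was lowest. Cnpy3, a chaperone cofactor for Toll-like receptors, was also higher (0.26; limma adjusted p = 0.355).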

How the data were processed

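RNA of splenic B cells was sequenced in 6 libraries. Per the labels' protocols, a pan-B cell kit was used and libraries came from a TruSeq RNA kit. That kit keeps no strand information, so overlapping and antisense genes share reads. The authors deposited FPKM per gene and library, a copy without gene names that is equal in every cell, FPKM means under MUT and WT, and gene lengths. Named in the submitters' processing notes, without a role, are mm9, STAR, DESeq2 and CASAVA 1.8.2, but 34490 of 35275 gene identifiers and 24919 gene spans match GENCODE M21 on GRCm38, whose coordinates are printed as deposited. FPKM times length gave whole reads for 100% of values (tolerance 0.01).

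Groups came from the labels, and a second grouping from the libraries whose means equal the deposited ones. limma 3.58.1 in R 4.3.3 (lmFit, eBayes with trend, two-sided) was run on log2(FPKM + 1) over the 11252 genes that averaged 1 FPKM or more, and adjusted p-values (Benjamini-Hochberg) were held against 0.05. Log2 differences on this scale understate the change of low genes. Levels are compared between genes only as FPKM. The fit was tested on simulated data. The members, roles, lists, and the rule for genes with values in every library (by role the most abundant and the 2 of widest range, the 10 of smallest p in each comparison, families, and Xbp1 and up to 3 genes a list) were chosen with earlier results of these data known. Genes given outside that rule were chosen after their values were seen, as were those printed as promoters. Alternatives were other pseudocounts, filters and scalings, voom, a replicate block, leaving out each library and, added after seeing the data, removal of the trend with gene length.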

Additional observations from a re-analysis of the deposited data

How the results depend on the processing

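The count of called genes among the 48 was 0 under every setting run in both comparisons. By the labels, 45 of 48 genes with lower values became 9 with only WT replicates 1 and 2 and CD40LΔ5 replicates 1 and 3, where 2 of all genes were called, and the count ran from 15 to 46 when 1 library was left out (median log2 difference -0.32 to 0.04). With those 4 libraries the log2 difference turned to 0.037 for Pdia4, 0.14 for Manf, 0.12 for Dnajb9, 0.054 for Spcs2, 0.17 for Hspa5, 0.13 for Pdia3, 0.13 for Calr and 0.055 for Spcs3. Leaving out 1 library gave -0.32 to 0.036 for Pdia3 and -0.36 to 0.036 for Calr. With the 4 libraries, the labels and the sets of the deposited means give the same contrast with the sign turned (median 0.13 and -0.13). That setting is therefore 1 fit and not separate evidence for each comparison. Why the libraries differ was not tested. Of the 48 genes, Spcs1 and Srp9 kept their direction under every setting.

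By the sets of the deposited means, 37 of 48 genes kept their direction under every setting, and the count of lower genes ran from 39 to 44 when 1 library was left out. The 3 genes called over the whole table became 5 with a pseudocount of 0.1, 0 with a minimum of 5 FPKM, 1 without a filter, 1 after quantile normalization, 1 with voom, and 1 to 16 when 1 library was left out. Quantile normalization moved the share of all genes with lower values from 38.0% to 50.6%, and 42 of the 48 were then lower. With the label's replicate number as a replicate block, the comparison rested on WT replicate 1 against CD40LΔ5 replicate 1 alone. Both libraries numbered 2 were averaged as MUT and both numbered 3 as WT. In that contrast of 1 library with 1 library, 41 of 48 genes were lower (median -0.15). The 10 genes lower at an unadjusted limma p under 0.05 became 0 with the 4 libraries named above, beside 65 of all 11216 genes. The count among the 48 was 7 without the length trend, 9 after quantile normalization, 12 with voom and 13 without immunoglobulin genes. Over all genes it was 450, 751 and 436 of 11252 and 674 of 11007 in the same order. The count among the 48 stayed at 10 under the other filters, pseudocount and scaling. Over all genes it was then 331 of 8023 with a minimum of 5 FPKM and 523 of 22097 without a filter. With the other pseudocount and scaling it was 402 and 704 of 11252. Equally numbered replicates deviated together for number 3 but not for numbers 1 and 2 (r over genes = 0.38, -0.38 and 0.06), so the numbers were not taken to pair the samples, and 2 of 3 libraries labelled WT correlated best with their own number. At 24320080 reads or more, the lowest member count in a library was 249 reads (Fkbp11), so depth limits these genes little.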
